A study of Chenopodium quinoa with 24 samples.

Results

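Chaperonins of the plastid and the mitochondrion were followed in quinoa leaves through every copy of 9 Arabidopsis loci. A quinoa transcript was taken as a member when its best Arabidopsis match in the deposited annotation, cut to the locus, was one of AT2G28000 (CPN60A1), AT1G55490 (CPN60B1), AT3G13470 (CPN60B2), AT5G20720 (CPN20), AT3G23990 (HSP60-3B), AT2G33210 (HSP60-2), AT3G13860 (HSP60-3A), AT1G14980 (CPN10-1) and AT1G23100 (CPN10-2). The rule used the annotation alone and found 21 of 44776 transcripts, 11 of them matching plastid proteins and 10 matching mitochondrial proteins. The matches covered 8 of the 9 loci, with no transcript for HSP60-2. Values were present in all 6 comparisons with control for 20 members, whereas the CPN10-1 transcript AUR62026424-RA had values in none and was not tested.

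Chaperonins are barrels of stacked rings in which a newly imported or heat-unfolded protein can fold out of contact with other proteins. In plastids the ring is built of alpha and beta CPN60 subunits and closed by CPN20, a lid made of a repeated CPN10 domain, and this chaperonin is known for folding the large subunit of Rubisco. In mitochondria the ring is built of HSP60 (also called CPN60) and the lid of CPN10. Compartments are given here as known for the Arabidopsis proteins, and quinoa, a tetraploid, carries several copies of most of these genes.

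RNA-seq was made on leaves of 24 QQ74 quinoa plants, 3 in each of 8 groups, with a plant as the replicate. Roots were held at 30°C with shoots at 22°C (HR, heated roots), at 22°C with shoots at 35°C (HS, heated shoots), at 30°C with shoots at 35°C (HRS, both heated), or at 22°C with shoots at 22°C (control). Heating began at first anthesis, and a green leaf from the middle of the plant was taken on day 1 or day 11 of heat. HR and control plants shared a growth chamber, HS and HRS plants shared another, and each treatment stood in its own wooden box, so that the chamber and shoot heating, and the box and the treatment, cannot be told apart.

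The table at hand gives, for each treatment fitted with the control of its day, the mean and the variances over 6 plants of the natural log of estimated counts, divided by size factors, plus 0.5. It holds no values of single plants, so the spread between plants is given by 95% intervals and no overlap of plants can be shown. Levels below are geometric means of normalised estimated counts per group. They are not divided by transcript length, so they compare groups for 1 transcript and not transcripts with each other. The days were normalised separately, and within a day the fits were set on a common scale by an offset per fit. A fold is the ratio of 2 group levels, and a transcript is called where limma's moderated test gave an adjusted p under 0.05 (Benjamini-Hochberg over all transcripts tested in that comparison). All comparisons of a day share the same 3 control plants. In bulk leaf RNA, more transcript per cell and more cells that hold it cannot be told apart.

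On day 1, heating the shoots went with higher levels of nearly all chaperonins of both organelles, whether or not the roots were heated. In HS, 16 of the 20 tested members were called higher and none lower, against 12.1% of 30258 transcripts called higher and 10.1% called lower. In HRS, 19 of the 20 were called higher and none lower, against a background of 12.2% higher and 10.6% lower. CPN10-2 AUR62038765-RA stood below control without a call, at 0.364 of control in HS and 0.238 in HRS. In HS 9 of 11 plastid and 7 of 9 mitochondrial members were called, and without moderation of the variance 9 plastid members and 1 mitochondrial member. The median fold over control was 3.92 in HS and 4.61 in HRS, whereas the median of all transcripts was 0.995 and 0.993. Heating the roots alone gave 0 calls among the members on day 1, where limma called 0% of 30320 transcripts. The member folds in HR ran from 0.753 to 1.45, with 1 member at an unadjusted p under 0.05 (HSP60-3B AUR62035925-RA) and 2322 of all transcripts.

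**Figure D1:**
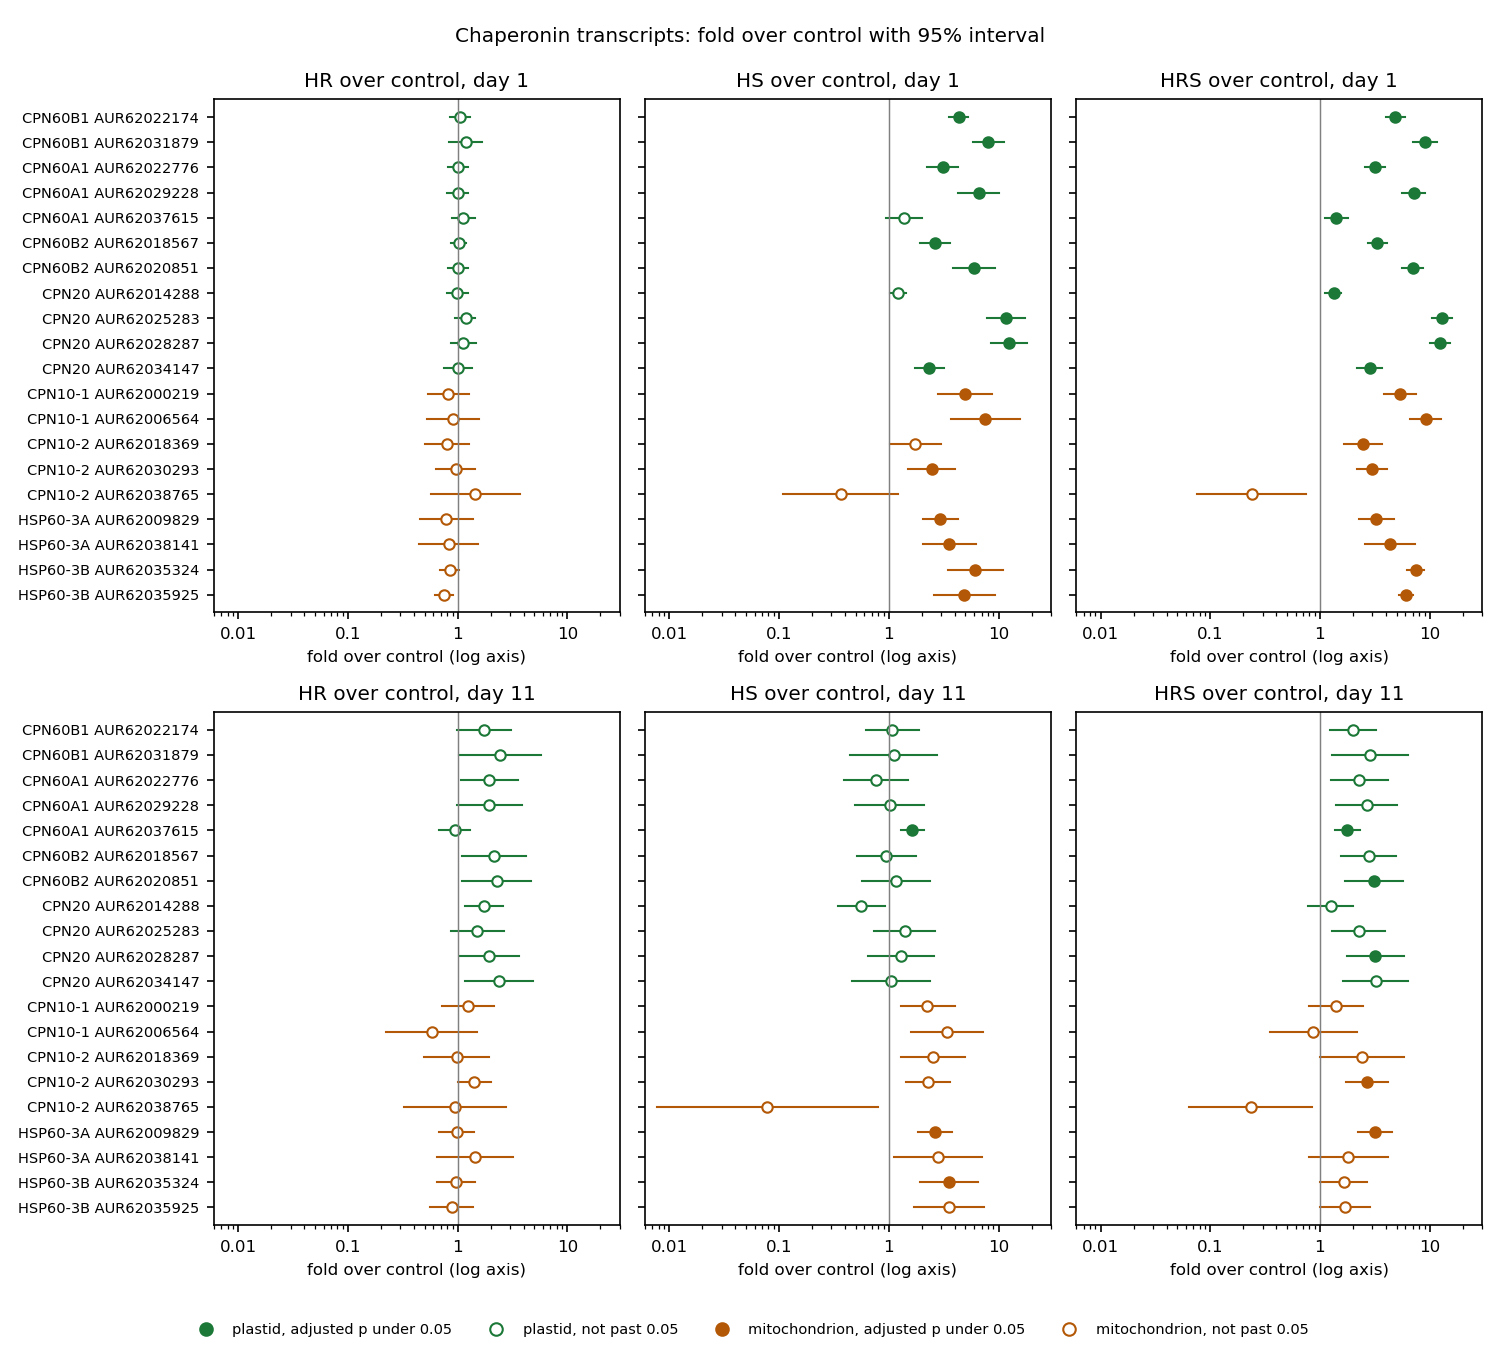
Fold over control (x axis, log scale) with 95% interval for the 20 tested chaperonin transcripts (rows), in HR, HS and HRS on day 1 (top) and day 11 (bottom), from 3 plants per group. Green marks plastid and brown mitochondrial members, and filled points had an adjusted p under 0.05 with limma: 16 in HS leaves and 19 in HRS leaves on day 1, 3 in HS leaves and 5 in HRS leaves on day 11, and 0 in HR on either day.

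The alpha subunit of the plastid ring, CPN60A1, had 3 copies. AUR62022776-RA stood at 1749 in HR, 5405 in HS, 5532 in HRS and 1749 in control on day 1. On day 11 it stood at 9589 in HR, 3806 in HS, 11197 in HRS and 4931 in control. The day 1 level was thus 3.09 times control in HS (95% interval 2.25 to 4.25, adjusted p = 0.00131 with limma) and 3.16 times control in HRS (2.55 to 3.93, adjusted p = 1.3e-04). AUR62029228-RA stood at 1103 in HR, 7254 in HS, 7860 in HRS and 1099 in control on day 1, and at 5821 in HR, 3052 in HS, 7965 in HRS and 2987 in control on day 11. It rose 6.60-fold in HS on day 1 (4.31 to 10.1, adjusted p = 5.1e-04 with limma) and 7.15-fold in HRS (5.59 to 9.15, adjusted p = 1.6e-05). On day 11 neither copy was called in any treatment, and their folds were 1.94 and 1.95 in HR, 0.772 and 1.02 in HS, and 2.27 and 2.67 in HRS.

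The third copy of CPN60A1, AUR62037615-RA, stayed within 1.77-fold of control. Its level was 241 in HR, 296 in HS, 304 in HRS and 215 in control on day 1, and 236 in HR, 411 in HS, 445 in HRS and 251 in control on day 11. The HS fold on day 1 was 1.38 (0.940 to 2.02, adjusted p = 0.212 with limma), and the HRS fold was 1.41 (1.11 to 1.79, adjusted p = 0.0448). On day 11 it was the one plastid member called in HS, at 1.64-fold (1.29 to 2.08, adjusted p = 0.0426 with limma), and it was called in HRS at 1.77-fold (1.36 to 2.32, adjusted p = 0.0344). In HR on day 11 it stood at 0.941 of control, the single plastid member below 1 there.

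The beta subunits CPN60B1 and CPN60B2 had 2 copies each, and all 4 rose in both treatments of the shoots on day 1. CPN60B1 AUR62022174-RA stood at 1073 in HR, 4400 in HS, 4966 in HRS and 1018 in control on day 1, and at 5220 in HR, 3224 in HS, 6017 in HRS and 3000 in control on day 11. The other CPN60B1 copy, AUR62031879-RA, stood at 274 in HR, 1880 in HS, 2108 in HRS and 232 in control on day 1, and at 2551 in HR, 1161 in HS, 3017 in HRS and 1046 in control on day 11. The day 1 folds were 4.32 in HS (3.53 to 5.29, adjusted p = 7.2e-05 with limma) for the first copy and 8.09 (5.84 to 11.2, adjusted p = 1.2e-04) for the second. In HRS they were 4.88 (adjusted p = 1.4e-05 with limma) and 9.07 (adjusted p = 1.1e-05).

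CPN60B2 AUR62018567-RA stood at 935 in HR, 2412 in HS, 3052 in HRS and 916 in control on day 1, and at 4203 in HR, 1854 in HS, 5442 in HRS and 1959 in control on day 11. CPN60B2 AUR62020851-RA stood at 771 in HR, 4604 in HS, 5367 in HRS and 769 in control on day 1, and at 3709 in HR, 1889 in HS, 5066 in HRS and 1635 in control on day 11. The first copy rose 2.63-fold in HS on day 1 (1.94 to 3.58, adjusted p = 0.00209 with limma) and 3.33-fold in HRS (2.74 to 4.05, adjusted p = 6.3e-05), and the second 5.99-fold in HS (3.83 to 9.36, adjusted p = 7.7e-04) and 6.98-fold in HRS (5.57 to 8.75, adjusted p = 1.1e-05). On day 11 AUR62020851-RA was the single beta copy called, in HRS, at 3.10-fold (1.68 to 5.72, adjusted p = 0.0491 with limma). In HS on that day the 4 beta copies lay between 0.946 and 1.16 of control, and in HR between 1.74 and 2.44.

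The plastid lid CPN20 had 4 copies, of which 2 showed the widest day 1 differences of all members. CPN20 AUR62028287-RA stood at 621 in HR, 6887 in HS, 6843 in HRS and 553 in control on day 1, and at 2548 in HR, 1679 in HS, 4169 in HRS and 1304 in control on day 11. CPN20 AUR62025283-RA stood at 889 in HR, 8813 in HS, 9822 in HRS and 755 in control on day 1, and at 2130 in HR, 1968 in HS, 3170 in HRS and 1410 in control on day 11. In HS on day 1 the first rose 12.5-fold (8.61 to 18.0, adjusted p = 9.0e-05 with limma) and the second 11.7-fold (7.87 to 17.3, adjusted p = 1.3e-04). In HRS they rose 12.4-fold (9.98 to 15.3, adjusted p = 2.1e-06 with limma) and 13.0-fold (10.5 to 16.1, adjusted p = 2.0e-06).

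The other CPN20 copies had smaller folds. AUR62034147-RA stood at 135 in HR, 313 in HS, 381 in HRS and 134 in control on day 1, and at 1147 in HR, 503 in HS, 1558 in HRS and 484 in control on day 11. AUR62014288-RA stood at 660 in HR, 806 in HS, 883 in HRS and 666 in control on day 1, and at 2658 in HR, 854 in HS, 1917 in HRS and 1522 in control on day 11. The HS folds on day 1 were 2.34 (1.72 to 3.17, adjusted p = 0.00363 with limma) for the first and 1.21 (1.02 to 1.44, adjusted p = 0.114) for the second, and both were called in HRS, at 2.84-fold (adjusted p = 5.4e-04) and 1.33-fold (adjusted p = 0.0253). On day 11, AUR62028287-RA was the one CPN20 copy called, in HRS, at 3.20-fold (1.76 to 5.82, adjusted p = 0.0432 with limma). AUR62014288-RA had the lowest HS value of the plastid members on that day, at 0.561 of control (0.343 to 0.918, adjusted p = 0.134).

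**Figure D2:**
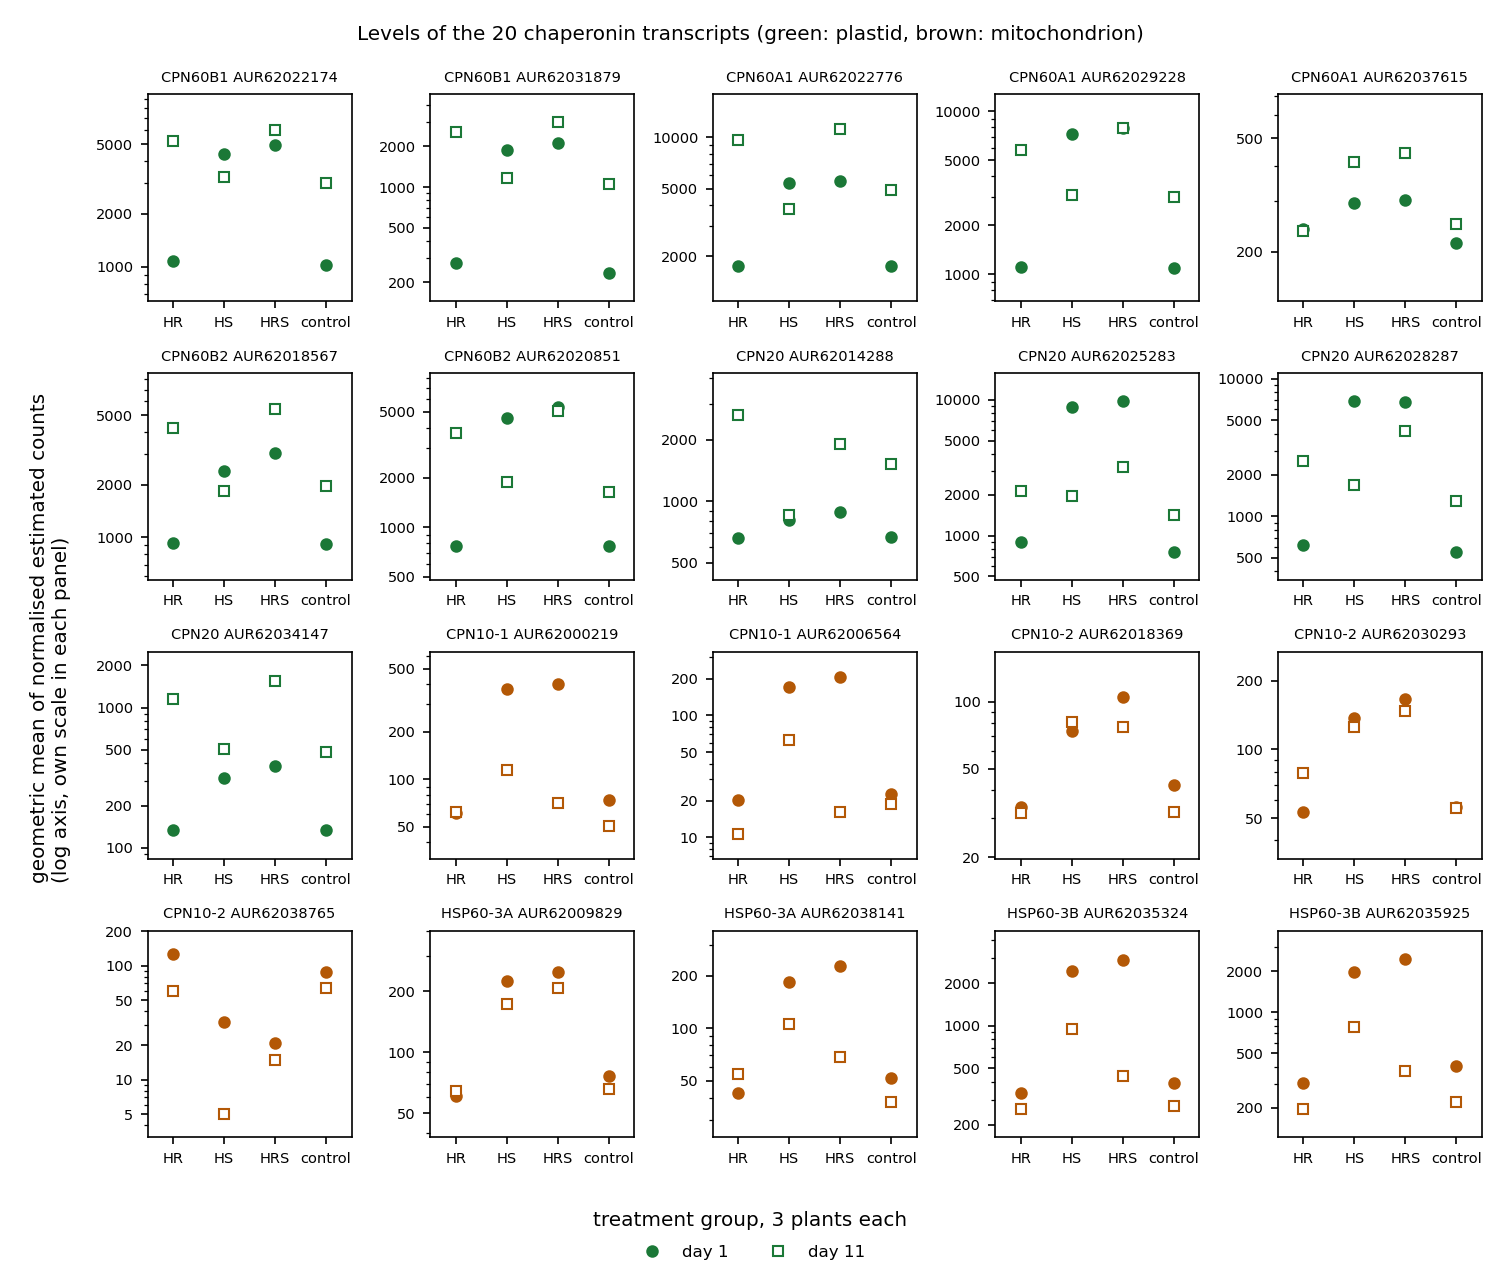
Level of each tested chaperonin transcript (y axis, geometric mean of normalised estimated counts of 3 plants, log scale, own scale in each panel) in HR, HS, HRS and control plants on day 1 (filled circles) and day 11 (open squares). The days were normalised separately; in CPN60A1 AUR62029228-RA, for example, the day 1 level was 7254 in HS and 7860 in HRS against 1099 in control, and the day 11 level was 3052 in HS and 7965 in HRS against 2987 in control.

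The mitochondrial ring protein HSP60-3B had 2 copies, both higher in shoot-heated plants on day 1. AUR62035324-RA stood at 332 in HR, 2419 in HS, 2928 in HRS and 394 in control on day 1, and at 260 in HR, 952 in HS, 442 in HRS and 270 in control on day 11. AUR62035925-RA stood at 305 in HR, 1973 in HS, 2464 in HRS and 405 in control on day 1, and at 195 in HR, 782 in HS, 374 in HRS and 220 in control on day 11. In HS they rose 6.14-fold (3.44 to 11.0, adjusted p = 0.00214 with limma) and 4.87-fold (2.56 to 9.27, adjusted p = 0.00602) on day 1. In HRS they rose 7.44-fold (6.24 to 8.86, adjusted p = 2.3e-06 with limma) and 6.09-fold (5.21 to 7.11, adjusted p = 2.1e-06). On day 11 their HS folds were 3.53 (1.92 to 6.50, adjusted p = 0.0425 with limma) and 3.55 (1.71 to 7.36, adjusted p = 0.0597), so that the first copy was called and the second was not at nearly the same fold. Their HRS folds on day 11 were 1.64 (adjusted p = 0.203 with limma) and 1.70 (adjusted p = 0.198), neither called.

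HSP60-3A, a second mitochondrial ring protein, also had 2 copies. AUR62009829-RA stood at 60.6 in HR, 225 in HS, 250 in HRS and 76.7 in control on day 1, and at 64.3 in HR, 174 in HS, 208 in HRS and 65.6 in control on day 11. It was called in all 4 comparisons of shoot-heated plants with control, at 2.93-fold in HS on day 1 (2.03 to 4.24, adjusted p = 0.00295 with limma), 3.26-fold in HRS on day 1 (adjusted p = 0.00151), 2.65-fold in HS on day 11 (1.86 to 3.79, adjusted p = 0.0283) and 3.17-fold in HRS on day 11 (2.22 to 4.52, adjusted p = 0.0155). No other member was. AUR62038141-RA stood at 42.8 in HR, 184 in HS, 226 in HRS and 51.7 in control on day 1, and at 54.8 in HR, 106 in HS, 68.8 in HRS and 38.0 in control on day 11. It rose 3.56-fold in HS (adjusted p = 0.00808 with limma) and 4.36-fold in HRS (adjusted p = 0.00300) on day 1, and its day 11 folds of 2.79 in HS and 1.81 in HRS were not called.

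The mitochondrial lid CPN10-1 had 2 tested copies. AUR62000219-RA stood at 61.2 in HR, 371 in HS, 400 in HRS and 74.5 in control on day 1, and at 62.3 in HR, 114 in HS, 70.9 in HRS and 50.4 in control on day 11. AUR62006564-RA stood at 20.4 in HR, 171 in HS, 208 in HRS and 22.6 in control on day 1, and at 10.7 in HR, 63.3 in HS, 16.1 in HRS and 18.6 in control on day 11. On day 1 they rose 4.97-fold (2.83 to 8.74, adjusted p = 0.00325 with limma) and 7.57-fold (3.67 to 15.6, adjusted p = 0.00349) in HS, and 5.36-fold (adjusted p = 1.8e-04) and 9.21-fold (adjusted p = 3.6e-05) in HRS. On day 11 their HS folds of 2.25 and 3.41 had adjusted p = 0.0860 and adjusted p = 0.0685 with limma, and their HRS folds were 1.41 and 0.869.

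CPN10-2, named a GroES-like family protein in the table, had 3 copies, 2 of them above and 1 below control in shoot-heated leaves. AUR62030293-RA stood at 53.3 in HR, 137 in HS, 167 in HRS and 55.8 in control on day 1, and at 78.8 in HR, 126 in HS, 148 in HRS and 55.4 in control on day 11. It was called at 2.45-fold in HS on day 1 (adjusted p = 0.0197 with limma), 2.99-fold in HRS on day 1 (adjusted p = 0.00103) and 2.67-fold in HRS on day 11 (1.73 to 4.14, adjusted p = 0.0300). AUR62018369-RA stood at 33.7 in HR, 73.7 in HS, 105 in HRS and 42.2 in control on day 1, and at 31.5 in HR, 80.9 in HS, 77.2 in HRS and 32.0 in control on day 11, with a single call, 2.48-fold in HRS on day 1 (adjusted p = 0.00700 with limma). AUR62038765-RA stood below control under shoot heat, at 127 in HR, 32.0 in HS, 20.9 in HRS and 88.0 in control on day 1, and at 60.3 in HR, 5.0 in HS, 14.9 in HRS and 63.8 in control on day 11. Its folds of 0.364 in HS leaves and 0.238 in HRS leaves on day 1, and of 0.0783 in HS leaves and 0.233 in HRS leaves on day 11, were not called, with adjusted p = 0.212, 0.0717, 0.152 and 0.163 with limma, and the day 11 interval in HS ran from 0.00769 to 0.796.

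On day 11 fewer members were called, and the medians of the plastid and the mitochondrial members lay apart. In HS, 1 of 11 plastid members was called higher (CPN60A1 AUR62037615-RA) and 2 of 9 mitochondrial members (HSP60-3A AUR62009829-RA and HSP60-3B AUR62035324-RA), with none called lower, against 2.08% of 30251 transcripts called higher and 2.91% called lower. The median HS fold was 1.07 over the plastid members and 2.65 over the mitochondrial members. At an unadjusted p under 0.05 with limma stood 2 of the plastid and all 9 of the mitochondrial members. Of these, the plastid CPN20 AUR62014288-RA and the mitochondrial CPN10-2 AUR62038765-RA were lower than control. Of all transcripts, 8409 of 30731 stood there. In HRS, 3 plastid members (CPN60A1 AUR62037615-RA, CPN60B2 AUR62020851-RA and CPN20 AUR62028287-RA) and 2 mitochondrial members (HSP60-3A AUR62009829-RA and CPN10-2 AUR62030293-RA) were called higher and none lower, where 2.78% of 30183 transcripts were called higher and 2.78% lower. The median HRS fold was 2.67 over the plastid members, all 11 of which stood above control, and 1.70 over the mitochondrial members. All of these day 11 calls had an adjusted p between 0.0155 and 0.0491, and none remained at a threshold of 0.01.

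In HR on day 11 no member was called, and 0% of the 30588 transcripts tested were. The plastid members lay above control in 10 of 11 cases with a median fold of 1.95, and 7 of the 11 had an unadjusted p under 0.05, as had 3379 of the 30588. That count of 7 became 4 with scaling to total counts, 2 with a Wald test on shrunken variance, 1 with limma without trend and 0 with 4 degrees of freedom and no moderation. The highest were CPN60B1 AUR62031879-RA at 2.44-fold (1.03 to 5.78, adjusted p = 0.444 with limma), CPN20 AUR62034147-RA at 2.37-fold (1.16 to 4.83, adjusted p = 0.413) and CPN60B2 AUR62020851-RA at 2.27-fold (1.1 to 4.67, adjusted p = 0.420). The mitochondrial members had a median of 0.980 and ranged from 0.578 to 1.44, with 0 of 9 at an unadjusted p under 0.05.

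The spread between plants was read from the residual SD of each fit. For the plastid members the median residual SD on the natural log scale was 0.12 in the HR fit, 0.22 in the HS fit and 0.12 in the HRS fit on day 1, and 0.45 in the HR fit, 0.45 in the HS fit and 0.41 in the HRS fit on day 11. For the mitochondrial members it was 0.18 in the HR fit, 0.39 in the HS fit and 0.18 in the HRS fit on day 1, and 0.33 in the HR fit, 0.42 in the HS fit and 0.35 in the HRS fit on day 11. Over all transcripts it was 0.19 in each fit of day 1 and between 0.21 and 0.24 on day 11. The variance that kallisto gave for its own estimates within a library holds the uncertainty in sharing reads between similar copies. On day 11 its median was 0.191% to 0.267% of the residual variance for the plastid members and 8.31% to 17.9% for the mitochondrial members. On day 1 the median was 1.75% to 9.05% for the plastid members. For the mitochondrial members it was then 9.60% in the HS fit, 29.3% in the HRS fit and higher in the HR fit. The highest value of a single plastid member was 137% on day 1 (HR fit) and 122% on day 11 (HS fit). For a single mitochondrial member it was 592% on day 1 (HRS fit) and 121% on day 11 (HR fit).

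Leaf genes and the total of counts also moved on day 11. The 18 tested leaf marker transcripts (copies of the Rubisco small subunit, Rubisco activase and light-harvesting proteins) summed to 2197745 in HR, 452923 in HS, 1475548 in HRS and 1670855 normalised estimated counts in control. In HS 10 of the 18 were called lower, with a median fold of 0.236, against 2.91% of 30251 transcripts called lower. On day 1 the leaf markers summed to 899473 in HR, 1071300 in HS, 933755 in HRS and 672043 in control. Flower markers were near the floor in every group: of 11 transcripts, 4 had values on day 1 and 3 on day 11, with sums between 24.3 and 64.4, and all copies of AG and PI were without values. The part of the leaf genes in the plastid values of HS on day 11 was not tested.

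Scaling to the total estimated counts of each group, in place of sleuth's size factors, subtracts from every difference 0.25 in HS leaves and 0.19 in HRS leaves on day 1, and -0.35 in HS leaves and 0.02 in HRS leaves on day 11, on the log2 scale. The 16 calls of members in HS on day 1 became 16 and the 19 in HRS became 18, of which 17 were higher and 1, CPN10-2 AUR62038765-RA, was lower (adjusted p = 0.0462 with limma). In HS on day 11 the count of members became 8, 1 plastid and 7 mitochondrial, and the median fold 1.37 over the plastid and 3.38 over the mitochondrial members. The background moved with it: 4405 transcripts were then called higher and 663 lower, in place of 629 and 879. On day 1 this scaling called 2383 higher and 6736 lower in HS, in place of 3672 and 3065, and 2605 higher and 5755 lower in HRS, in place of 3681 and 3181.

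Root heating under hot shoots was read from HRS against HS. On day 1 no member was called and 0% of 29988 transcripts were, with 0 members at an unadjusted p under 0.05 and 658 of all transcripts. The member folds of HRS over HS ran from 0.652 to 1.42 with a median of 1.12, and the intervals of the plastid members lay between 0.665 and 1.85. On day 11 again no member and 0% of 29947 transcripts were called. The 11 plastid members all stood higher in HRS than in HS, with a median fold of 2.60, whereas 6 of 9 mitochondrial members stood lower, with a median of 0.648.

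The day 11 values of HRS over HS were largest for CPN20 AUR62034147-RA at 3.10 (1.18 to 8.13, adjusted p = 0.253 with limma), CPN60A1 AUR62022776-RA at 2.94 (1.26 to 6.85, adjusted p = 0.216) and CPN60B2 AUR62018567-RA at 2.94 (1.34 to 6.41, adjusted p = 0.186). They were lowest for CPN10-1 AUR62006564-RA at 0.255 (0.0791 to 0.820, adjusted p = 0.254 with limma) and HSP60-3B AUR62035324-RA at 0.464 (0.225 to 0.959, adjusted p = 0.303). An unadjusted p under 0.05 was reached by 7 plastid and 2 mitochondrial members and by 4525 of all transcripts. With scaling to total counts the unadjusted count became 1 plastid and 3 mitochondrial members, the median folds became 2.02 over the plastid members, of which 10 of 11 then stood higher in HRS, and 0.503 over the mitochondrial members, of which 8 of 9 stood lower. The first test took the largest residual variance that the separate fits allow. With an equal spread assumed in HS, HRS and control, 5 plastid members (CPN60A1 AUR62022776-RA, both CPN60B2 copies, and CPN20 AUR62014288-RA and AUR62034147-RA) were called higher in HRS than in HS and 1 mitochondrial member (CPN10-1 AUR62006564-RA) lower, among 3535 of all transcripts. The leaf markers were also higher in HRS than in HS, with 18 of 18 tested transcripts above 1 and a median fold of 4.60, and their part in the plastid values was not tested.

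**Figure D3:**
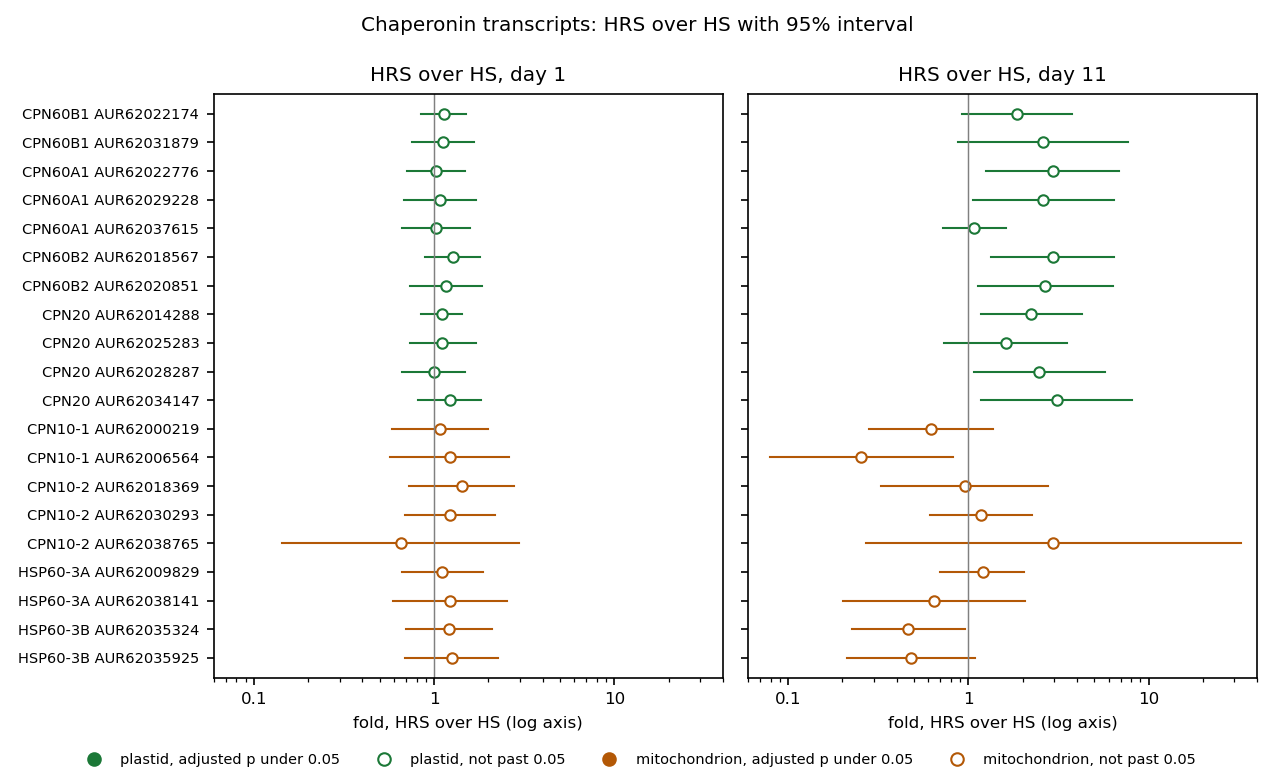
Fold of HRS over HS (x axis, log scale) with 95% interval for the 20 tested chaperonin transcripts (rows) on day 1 (left) and day 11 (right), 3 plants per group, green for plastid and brown for mitochondrion. No point is filled because no adjusted p was under 0.05; on day 11 the plastid folds lie between 1.08 and 3.10 and the mitochondrial folds between 0.255 and 2.97.

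Whether the response changed between the days was tested as the difference of the day 11 and the day 1 effect. In HS, 10 of 11 plastid and 8 of 9 mitochondrial members had a smaller fold on day 11 than on day 1. The difference was called for 7 plastid members, all lower, against 8.32% of 29355 transcripts called lower and 4.37% called higher. With limma 0 of 9 mitochondrial members were called. An unadjusted p under 0.05 was reached by 0 of the 9 and by 8176 of the 29355 transcripts. The 7 called were CPN60A1 AUR62022776-RA and AUR62029228-RA, both CPN60B1 copies, CPN60B2 AUR62020851-RA, and CPN20 AUR62025283-RA and AUR62028287-RA. The widest was that of CPN20 AUR62028287-RA, whose HS fold on day 11 was 0.103 of that on day 1 (0.0453 to 0.236, adjusted p = 0.00311 with limma). The median ratio of the HS folds, day 11 over day 1, was 0.249 over the plastid members and 0.728 over the mitochondrial members. With scaling to total counts the median of the mitochondrial members was 1.1, so that its direction turned, whereas that of the plastid members was 0.378, with 6 called lower and 1 (CPN60A1 AUR62037615-RA) called higher, and 8808 of all transcripts were then called higher and 1261 lower, in place of 1282 and 2441.

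In HRS the calls between days fell on both organelles. The ratio of folds was called lower for 4 of 9 mitochondrial and 2 of 11 plastid members, with none higher, against 3.61% of 29188 transcripts called lower and 1.49% called higher. For CPN10-1 AUR62006564-RA the HRS fold on day 11 was 0.0944 of that on day 1 (0.0395 to 0.226, adjusted p = 0.00574 with limma), and for CPN10-1 AUR62000219-RA 0.262 of it (adjusted p = 0.0198). For the HSP60-3B copies AUR62035324-RA and AUR62035925-RA the ratio was 0.220 (0.130 to 0.374, adjusted p = 0.00414 with limma) and 0.279 (adjusted p = 0.0131). The plastid members called were CPN20 AUR62025283-RA at 0.173 (adjusted p = 0.00471 with limma) and AUR62028287-RA at 0.258 (adjusted p = 0.0257). All CPN60 subunits of the plastid ring were without a call here, with ratios between 0.318 and 1.25. That a transcript passed in one treatment and not in the other was not itself tested. With scaling to total counts the same counts of members, 2 and 4, were called lower, whereas all transcripts split into 796 higher and 704 lower, in place of 435 and 1054.

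**Figure D4:**
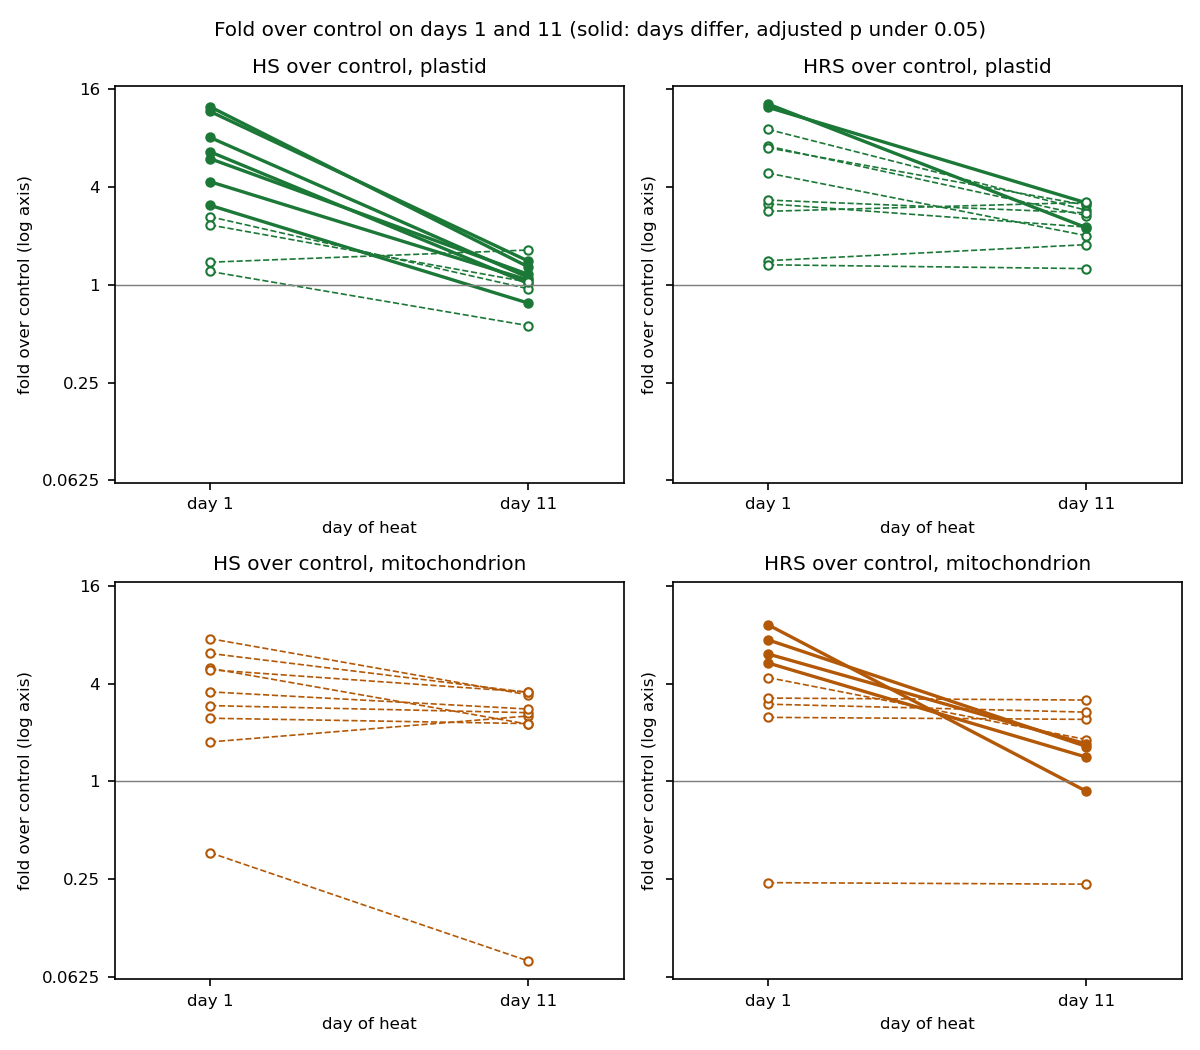
Fold over control (y axis, log scale) on day 1 and day 11 of heat for each tested chaperonin transcript, in HS (left) and HRS (right), plastid members above and mitochondrial members below. Solid lines and filled points mark members whose effect differed between the days (adjusted p under 0.05 with limma): 7 plastid members in HS, and 2 plastid and 4 mitochondrial members in HRS.

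The control level of the chaperonins also stood apart between the days. The control level of the plastid members on day 11 was a median of 2.36 times that on day 1, with a range from 1.17 for CPN60A1 AUR62037615-RA to 4.50 for CPN60B1 AUR62031879-RA, whereas the median over all 29552 transcripts with both values was 0.966. For the mitochondrial members the median was 0.734, with a range from 0.545 for HSP60-3B AUR62035925-RA to 0.994 for CPN10-2 AUR62030293-RA. The days were normalised separately and no test was made. In HS, the level of CPN60B1 AUR62022174-RA was 4400 on day 1 and 3224 on day 11, and that of AUR62031879-RA 1880 and 1161. CPN60A1 AUR62022776-RA stood at 5405 and 3806 there, and AUR62029228-RA at 7254 and 3052. CPN60B2 AUR62020851-RA stood at 4604 and 1889. CPN20 AUR62025283-RA stood at 8813 and 1968, and AUR62028287-RA at 6887 and 1679. These are the 7 plastid members whose HS effect differed between the days, and all stood lower in HS on day 11.

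Related genes were read for comparison. Other plastid chaperonin subunits (3 of 5 loci matched, 6 transcripts) had 3 called higher in HS leaves and 4 in HRS leaves on day 1, with medians of 1.86 and 1.91. On day 11 limma called 0 of them in HS and 0 in HRS, with 2 at an unadjusted p under 0.05 in either treatment. The plastid CPN10 copies of AT3G60210 rose 3.95-fold (AUR62023368-RA, adjusted p = 8.5e-04 with limma) and 3.08-fold (AUR62013788-RA, adjusted p = 9.7e-04) in HS on day 1, and CPN60B4 AUR62025725-RA, a ring subunit known from Arabidopsis for folding NdhH, rose 1.48-fold (adjusted p = 0.0155). The cytosolic chaperonin CCT, which folds actin and tubulin, also rose: 11 of 17 transcripts were called higher in HS and 15 of 17 in HRS on day 1, with medians of 1.44 and 1.68. On day 11, 0 of the 17 were called in HS (10 at an unadjusted p under 0.05) and 2 in HRS. Among those called in HS on day 1, CCT2 AUR62023775-RA at 2.51 and CCT6A AUR62001562-RA at 1.99 were highest, and CCT1 AUR62017449-RA at 1.33 and CCT6A AUR62020221-RA at 1.35 lowest.

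The HSP70 machine of the organelles can pass unfolded proteins on to the chaperonins. Of its transcripts 13 of 16 were called higher in HS and 14 of 16 in HRS on day 1, with medians of 3.10 and 3.97. On day 11 these counts were 5 in HS leaves and 4 in HRS leaves. Over all transcripts limma called 12.1% higher and 10.1% lower in HS on day 1, and 12.2% higher in HRS. On day 11 it called 2.08% higher in HS and 2.78% in HRS. The highest in HS on day 1 were cpHSC70-2 AUR62023527-RA at 205-fold (109 to 387, adjusted p = 4.7e-05 with limma) and mtHSC70-2 AUR62032879-RA at 109-fold (31.2 to 381, adjusted p = 0.00102), and the lowest called were cpHSC70-1 AUR62038856-RA at 1.34 and cpHSC70-2 AUR62040144-RA at 2.60. Of the Rubisco assembly factors, which act after the plastid chaperonin, 5 of 8 transcripts were called higher and 1 lower in HS on day 1, and 4 higher in HRS, with medians of 1.37 and 1.69. BSD2 AUR62011130-RA fell to 0.488 of control in HS on day 1 (0.299 to 0.796, adjusted p = 0.0455 with limma), and RBCX2 AUR62019304-RA had the smallest rise that was called, at 1.29-fold.

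Patterns over the 6 differences were compared by Euclidean distance on the natural log scale among the 28719 transcripts with all 6. Nearest to CPN60A1 AUR62022776-RA, which was picked from the plastid members called in HS on day 1 by its estimated count in control, a rank that also depends on transcript length, were cpHSC70-2 AUR62040144-RA (distance 0.23), the plastid ribosomal protein PSRP6 AUR62034964-RA (0.26), a disease resistance homolog AUR62014548-RA (0.26), the thylakoid translocase subunit SECE1 AUR62033636-RA (0.28) and a thylakoid lumenal protein AUR62013336-RA (0.30). Its nearest fellow member, CPN60B2 AUR62018567-RA, lay at 0.35. For cpHSC70-2 AUR62040144-RA the folds were 1.02 in HR, 2.60 in HS leaves and 3.08 in HRS leaves on day 1, and 2.01 in HR, 0.867 in HS leaves and 2.44 in HRS leaves on day 11. Nearest to HSP60-3B AUR62035925-RA, the mitochondrial member chosen in the same way, was its own second copy AUR62035324-RA (0.34), followed outside the members by an ACC oxidase homolog AUR62042754-RA (0.36), the oxoprolinase OXP1 AUR62001097-RA (0.39) and the mitochondrial GrpE MGE2 AUR62006635-RA (0.47), which helps release nucleotide from the HSP70 of that organelle, and by AUR62010730-RA (0.49) and AUR62038807-RA (0.49). MGE2 AUR62006635-RA had folds of 0.805 in HR, 5.23 in HS leaves and 8.14 in HRS leaves on day 1, and 0.713 in HR, 2.95 in HS leaves and 1.38 in HRS leaves on day 11.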

How the data were processed

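Reads were trimmed (trimmomatic) and quantified (kallisto) by the authors on the quinoa v1.0 transcriptome, and sleuth 0.30.0 fitted each treatment together with the control of its day. The authors' deposited table of 69 columns holds, per fit, the mean on the natural log scale of normalised estimated counts and its total, estimation and residual variance, and effect sizes, p-values and q-values of the authors' comparisons, which were not used. Columns with values of single plants number 0, so the depth per plant is not given here.

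The size of each difference was computed from the total and residual sums of squares of 6 plants. Its sign is the one under which the control means of the 3 fits of a day match, after an offset per fit that was also taken out of the levels. For the members they matched within 0.00212, and 1 of 120 signs was uncertain (CPN60A1 AUR62022776-RA in HR on day 1, difference 0.00). Differences were tested with limma 3.58.1 (R 4.3.3), with a trend over abundance and 4 residual degrees of freedom. HRS against HS took the largest variance the fits allow, and the days were compared with 8 degrees of freedom. The steps were tested on simulated data. Other work was done in Python 3.11.15 with pandas 2.3.3, statsmodels 0.14.6, numpy 2.4.6, scipy 1.17.1 and matplotlib 3.10.9.

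Every member was named; of each list, the 2 largest and 2 smallest differences among those called in HS on day 1, except that the 2 largest of the Rubisco assembly factors are not reported here. Members and lists were chosen with earlier results of these data known. Alternatives were a Wald test with shrunken variance, limma without trend, no moderation, a mean of at least 10 estimated counts, total scaling, a threshold of 0.01, equal spread and a z test.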

Additional observations from a re-analysis of the deposited data

Results flagged for a closer look

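The members below drew attention because their effect differed between day 11 and day 1 (limma, adjusted p under 0.05). Differences are day 11 minus day 1 on the natural log scale. In HS these were CPN60B1 AUR62022174-RA (-1.39, adjusted p = 0.00735), CPN60B1 AUR62031879-RA (-1.99, adjusted p = 0.0183), CPN60A1 AUR62022776-RA (-1.39, adjusted p = 0.0251), CPN60A1 AUR62029228-RA (-1.87, adjusted p = 0.0121), CPN60B2 AUR62020851-RA (-1.65, adjusted p = 0.0227), CPN20 AUR62025283-RA (-2.12, adjusted p = 0.00351) and CPN20 AUR62028287-RA (-2.27, adjusted p = 0.00311). In HRS they were CPN20 AUR62025283-RA (-1.75, adjusted p = 0.00471), CPN20 AUR62028287-RA (-1.35, adjusted p = 0.0257), CPN10-1 AUR62000219-RA (-1.34, adjusted p = 0.0198), CPN10-1 AUR62006564-RA (-2.36, adjusted p = 0.00574), HSP60-3B AUR62035324-RA (-1.51, adjusted p = 0.00414) and HSP60-3B AUR62035925-RA (-1.28, adjusted p = 0.0131).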

How the results depend on the processing

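Counts of called members depended on the test on day 11 more than on day 1. Of the members called in HS on day 11 (3 in all), the count became 0 with limma without trend, 0 with 4 degrees of freedom and no moderation, 0 at an adjusted p under 0.01, 7 with the Wald test and shrunken variance, and 8 with scaling to total estimated counts. In HRS on day 11 (5) it became 1 without trend, 0 without moderation and 0 at 0.01. The Wald test there called 5 plastid and 2 mitochondrial members, and total scaling 2 plastid and 2 mitochondrial members. In HS on day 1 (16) it became 10 without moderation, 9 plastid and 1 mitochondrial, and in HRS against HS on day 11 (0) it became 6 with equal spread in every group. The cause was not tested. Over all transcripts in HS on day 11, limma called 1522, limma without trend 82, the test without moderation 2, the threshold of 0.01 22, the Wald test 4174 and total scaling 5068. In HRS on day 11 these counts were 1683, 294, 24, 19, 3723 and 1698. Of the 43 calls of single members against control, 27 also passed without moderation, 34 without trend, 32 at 0.01 and 43 with the Wald test. Of these and the 13 calls between days, 56 in all, 52 also passed with total scaling and 56 with the filter on low values, and none changed direction. No paired analysis was possible because the plants of different treatments share no replicate number and the table holds no values of single plants. For the same reason no plant could be left out in turn. The number of plants, 3 per group, limited the precision. With that number on both days, the median residual SD among the plastid members was 0.12 to 0.22 on day 1. On day 11 it was 0.41 to 0.45, both on the natural log scale.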
